A study of Glycine max with 12 samples.

Results

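Class III peroxidases were followed as a gene family in leaves of the soybean (Glycine max) cultivar HN95 under saline-alkali stress. A gene was a member if its description in the deposited table named a numbered peroxidase, a cationic peroxidase or a lignin-forming anionic peroxidase and did not name an ascorbate or glutathione peroxidase, a thioredoxin or a peroxiredoxin. This rule took 68 of 46446 listed genes. Of these, 66 carry the annotation of a class III peroxidase enzyme. The other 2, Glyma.04G068000 and Glyma.06G069700, are described as protein OVEREXPRESSOR OF CATIONIC PEROXIDASE 3, which is known in Arabidopsis as a homeodomain transcription factor of the defence response. They entered through the words of the rule. They are left out of the counts and sums over the 66 enzyme genes below, but are included in the counts over tested members.

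All plants grew in pots and received 3 L of a mixed solution of 320 mM NaHCO3, 320 mM Na2SO4, 40 mM NaCl and 40 mM Na2CO3 per 20 kg of soil. Leaves were sprayed with 200 mg/L nano-SiO2 (silica nanoparticles), with 300 µM melatonin (MT, an indoleamine that plants also make), or with both (nano-SiO2+MT), and the control was stressed in the same way. Whether the control was sprayed with water is not stated, and unstressed plants are not analysed here. Functional leaves were taken 7 days after spraying, with 3 libraries in each of the 4 groups. All plants are labelled as wild type and all libraries carry the same batch label.

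Class III peroxidases are secreted heme enzymes of plants that use hydrogen peroxide to oxidise phenolic compounds. In cell walls they couple monolignols, the building blocks of lignin, a task they share with the laccases, which use oxygen instead. They also help to form suberin, cross-link wall proteins and can both consume and produce reactive oxygen species, and total peroxidase activity is often measured as an antioxidant enzyme in stressed leaves. The family is large in every flowering plant, and many members are best known from roots, stems or seeds.

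Levels were FPKM values, which scale the sequenced fragments of a gene to its transcript length and to the total of the library. Summed FPKM ran from 522120 to 559092 per library, between 25557 and 27660 genes reached 1 FPKM, and the depth of the libraries relative to their mean, read from the steps between low values, ran from 0.848 to 1.27. Absolute depth is unknown. Libraries of 1 group correlated at 0.958 to 0.992 over the tested genes, and on the first principal component (32.9% of the variance) control 1, nano-SiO2 2, MT 3 and nano-SiO2+MT 3 each stood apart from the other libraries of their group. The leaf label was checked with 30 light-harvesting and RuBisCO genes, whose summed level was 27587 to 74763 FPKM. By contrast, 7 genes of suberin and endodermis summed to 1.29 to 4.16 FPKM. The 13 genes of the root and nodule list summed to 397 to 744 FPKM, nearly all of it from an early nodulin-12A gene and 1 nodulin-26 gene.

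Most of the family was at or near 0 in these leaves. Testing required a level of 1 FPKM or more in at least 3 libraries, which 18 of the 66 enzyme genes (27.3%) and 60.8% of all listed genes reached. Of the 48 enzyme genes below this limit, 27 averaged under 0.1 FPKM, among them 4 listed at 0 in every library, and 21 averaged 0.1 FPKM or more. The genes at 0 were those of a lignin-forming anionic peroxidase (Glyma.11G101200, a name taken from tobacco), peroxidase 3 (Glyma.10G022500) and 2 copies of peroxidase 10 (Glyma.01G184200 and Glyma.02G135100). The second lignin-forming anionic peroxidase gene, Glyma.20G171900, averaged 0.0125 FPKM. All 5 genes of peroxidase 72, an enzyme of stem lignin in Arabidopsis, stayed under the limit, with means between 0.00310 FPKM (Glyma.16G132800) and 0.242 FPKM (Glyma.16G133000). So did the 4 genes of peroxidase 5 or peroxidase 5-like, none of which averaged more than 0.00716 FPKM.

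The limit of the filter ran through a continuous range of levels. Just inside it lay peroxidase 64 (Glyma.14G221400), with a mean of 0.591 FPKM and exactly 3 libraries at 1 FPKM. Just outside lay peroxidase 17-like (Glyma.09G002500), with a higher mean of 0.682 FPKM and a highest value of 1.16 FPKM. In all, 5 untested genes reached 1 FPKM in 1 or 2 libraries. Peroxidase 21 (Glyma.10G050800) did so with 2.58 FPKM in nano-SiO2 3, peroxidase 47 (Glyma.09G156700) with 1.83 FPKM in nano-SiO2+MT 2, cationic peroxidase 2 (Glyma.15G052700) with 1.52 FPKM in MT 3, and peroxidase 51 (Glyma.01G192500) with at most 1.26 FPKM.

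**Figure D1:**
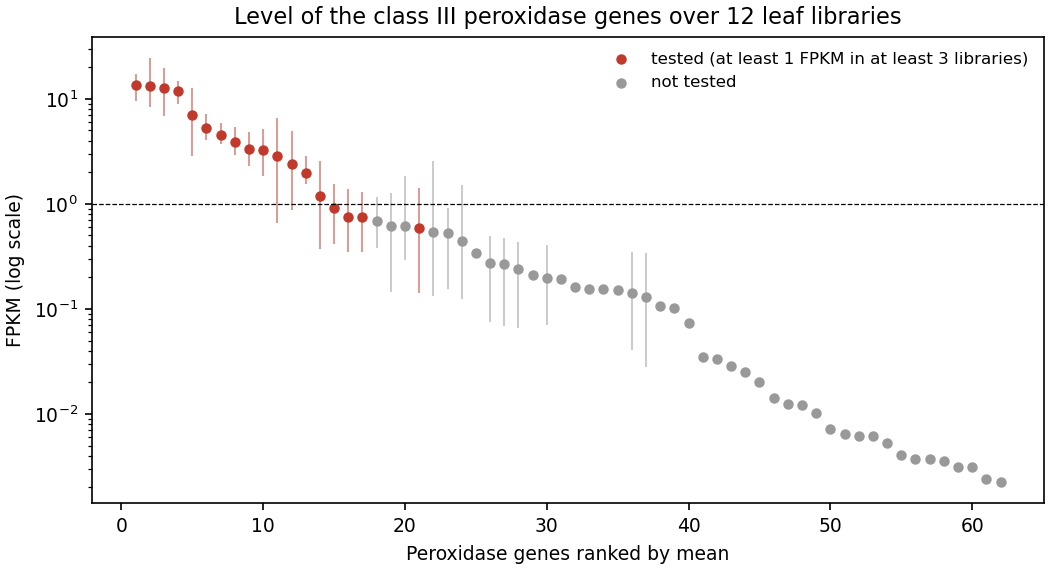
Mean FPKM over 12 libraries (points, log scale) of the class III peroxidase enzyme genes in order of their mean, with the range over libraries as a line for genes above 0 in every library. The tested genes (red) reach a mean of 13.7 FPKM, the untested genes (grey) stay at or under a mean of 0.682 FPKM, and 4 genes at 0 in every library are not drawn.

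The transcripts that were present came from few genes. The 5 most abundant enzyme genes held 54.4% to 63.7% of the family's summed FPKM in each library, and 11 genes stayed at or above 1 FPKM in all 12. Summed over the 66 genes, the level was 107 ± 9.31 FPKM with nano-SiO2, 83.7 ± 10.6 FPKM with MT, 91.9 ± 18.1 FPKM with nano-SiO2+MT and 104 ± 11.9 FPKM in control (mean ± SD, n = 3 libraries each). The libraries ran from 96.6 to 113 FPKM with nano-SiO2, from 76.1 to 95.7 FPKM with MT, from 73.4 to 110 FPKM with nano-SiO2+MT and from 91.9 to 116 FPKM in control. Every sprayed group thus overlapped the control libraries, and the family held between 0.0135% and 0.0218% of all FPKM. In whole leaves, fewer cells of a type and less RNA per cell cannot be told apart.

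Peroxidase 4, known in Arabidopsis for a part in stem lignification, supplied 2 of the 3 most abundant genes. Glyma.14G201800 on chromosome 14 had 16.8, 17.1 and 15.8 FPKM with nano-SiO2, 9.50, 11.1 and 14.1 FPKM with MT, 10.4, 12.1 and 13.8 FPKM with nano-SiO2+MT, and 11.9, 16.3 and 15.1 FPKM in control. Its nano-SiO2 libraries all lay above those of nano-SiO2+MT and of MT, while the control libraries overlapped each group. Glyma.02G234200 on chromosome 2 had 13.8, 13.8 and 8.59 FPKM with nano-SiO2, 9.86, 6.84 and 14.7 FPKM with MT, 11.0, 13.7 and 11.1 FPKM with nano-SiO2+MT, and 12.5, 19.6 and 15.4 FPKM in control. Here single libraries spread widely within the nano-SiO2 and MT groups. Neither gene was called in any comparison.

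Cationic peroxidase 2 (Glyma.17G013600), second in abundance, had 11.2, 11.7 and 24.5 FPKM with nano-SiO2, 9.27, 10.8 and 10.7 FPKM with MT, 8.28, 18.1 and 13.6 FPKM with nano-SiO2+MT, and 11.4, 14.9 and 14.2 FPKM in control. All MT libraries lay below all control libraries, and nano-SiO2 3 was the highest of the 12 libraries. Peroxidase 55 (Glyma.19G091800) had 11.6, 11.8 and 8.95 FPKM with nano-SiO2, 14.4, 14.7 and 12.7 FPKM with MT, 10.8, 10.9 and 12.5 FPKM with nano-SiO2+MT, and 9.71, 12.8 and 11.5 FPKM in control. It was the one of the 4 most abundant genes with its highest mean under MT, but MT 3 lay within the control libraries and no comparison passed.

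Peroxidase 12 (Glyma.20G169200) averaged 4.96 ± 0.878 FPKM with nano-SiO2, 5.82 ± 0.141 FPKM with MT, 5.75 ± 1.21 FPKM with nano-SiO2+MT and 4.61 ± 0.709 FPKM in control. Cationic peroxidase 1 (Glyma.18G211000), a name taken from peanut, averaged 4.93 ± 1.07, 5.10 ± 0.827 and 4.15 ± 0.174 FPKM with nano-SiO2, with MT and with both, and 4.00 ± 0.0584 FPKM in control. Of the 2 genes of OVEREXPRESSOR OF CATIONIC PEROXIDASE 3, Glyma.06G069700 averaged 7.54 ± 1.21, 6.35 ± 0.678 and 5.59 ± 0.0900 FPKM under the same sprays and 6.70 ± 1.51 FPKM in control. No test called any of these 3 genes.

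Several moderately abundant genes had their highest mean with nano-SiO2, and those given here were not called in any test. Peroxidase 4 on chromosome 11 (Glyma.11G161600) was another, and its F test call is given below. Peroxidase 50 (Glyma.17G163200) had 5.33, 5.42 and 4.15 FPKM with nano-SiO2, 3.65, 2.94 and 3.22 FPKM with MT, 2.97, 3.53 and 3.10 FPKM with nano-SiO2+MT, and 3.66, 4.63 and 4.11 FPKM in control. Its MT and nano-SiO2+MT libraries all lay below the control libraries. Peroxidase 17 (Glyma.12G241800), known in Arabidopsis for a part in lignification, had 3.26, 4.87 and 4.54 FPKM with nano-SiO2, 2.31, 3.27 and 2.78 FPKM with MT, 2.75, 2.79 and 3.09 FPKM with nano-SiO2+MT, and 3.02, 3.16 and 3.71 FPKM in control. The control libraries overlapped each sprayed group. The second OVEREXPRESSOR gene, Glyma.04G068000, averaged 2.10 ± 0.432 FPKM with nano-SiO2, 1.49 ± 0.0962 FPKM with MT, 1.56 ± 0.111 FPKM with nano-SiO2+MT and 1.43 ± 0.576 FPKM in control.

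Changes were measured on log2(FPKM + 1), a scale that understates the change of low genes, and tested with limma over all 12 libraries. Benjamini-Hochberg adjustment covered all 28260 tested genes, and called means an adjusted p under 0.05. Each library is labelled as a biological replicate, but separate plants or pots are not stated, so these p-values measure the spread between the samples, which may be partly technical. The tested members numbered 20, of which 18 were enzyme genes and 2 were the OVEREXPRESSOR genes. Of these, 3 reached 1 FPKM in only 3 libraries. Putative Peroxidase 48 did so in the nano-SiO2 libraries alone and entered through that group. Peroxidase 25 reached 1 FPKM in 6 libraries, all of them sprayed. Peroxidase 31 (Glyma.19G013400) reached it only in nano-SiO2 and nano-SiO2+MT libraries. Peroxidase 64 (Glyma.14G221400) and peroxidase 12 (Glyma.10G222500) reached it in no MT library. The counts below therefore describe the 20 and not the whole family.

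The 3 sprays against control ask which peroxidase genes differ from leaves of the stressed control. With nano-SiO2, 1 of 20 members was called lower and none higher, where 0.492% of all tested genes were called, 0.389% higher and 0.103% lower. With MT, 2 of 20 were called lower and none higher, where 3.35% of all tested genes were called, 1.66% higher and 1.69% lower. With nano-SiO2+MT, 1 of 20 was called lower and none higher, where 1.37% of all tested genes were called, 0.729% higher and 0.637% lower. At an unadjusted p under 0.05 the members numbered 4, 7 and 4 for the same sprays, where 10.7%, 16.8% and 12.1% of all tested genes passed.

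The called gene shared by all 3 sprays was peroxidase 22 (Glyma.09G022400 on chromosome 9), a mid-abundance member. It had 1.29, 1.77 and 2.39 FPKM with nano-SiO2, 1.91, 1.53 and 1.83 FPKM with MT, 0.879, 2.09 and 1.40 FPKM with nano-SiO2+MT, and 4.91, 4.21 and 4.45 FPKM in control. All 9 sprayed libraries lay below all 3 control libraries. The ratio of the group means to the control mean was 0.402 with nano-SiO2, 0.388 with MT and 0.322 with nano-SiO2+MT. All 3 comparisons use the same control libraries. On the log2 scale it fell by 0.99 with nano-SiO2 (SE 0.18, adjusted p = 0.0335), by 1.00 with MT (SE 0.18, adjusted p = 0.00938) and by 1.20 with nano-SiO2+MT (SE 0.18, adjusted p = 0.00786). Between the sprays it was not called: the change was -0.21 for nano-SiO2+MT against nano-SiO2 (adjusted p = 0.531) and -0.19 for nano-SiO2+MT against MT (adjusted p = 1).

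The calls of peroxidase 22 with MT and with nano-SiO2+MT held in each of the 12 fits with 1 library left out. The nano-SiO2 call was less firm and did not pass without control 1 (adjusted p = 0.174), control 2 (0.122), control 3 (0.114), nano-SiO2 1 (0.109), nano-SiO2 2 (0.138), MT 1 (0.0614) or MT 2 (0.0533), although its direction held. It also did not pass with a pseudocount of 0.1 (adjusted p = 0.0687) or without the filter on low values (0.0771).

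Peroxidase 64 (Glyma.01G163100 on chromosome 1) was the second gene called with MT and the fifth most abundant enzyme gene. In Arabidopsis this peroxidase is known for lignin of the Casparian strip, a barrier in the root endodermis. It had 5.49, 7.27 and 8.91 FPKM with nano-SiO2, 2.87, 3.88 and 4.07 FPKM with MT, 5.00, 12.7 and 8.07 FPKM with nano-SiO2+MT, and 7.88, 10.1 and 8.58 FPKM in control. The MT libraries lay below all libraries of the other groups, which overlapped each other. Its mean with MT was 0.407 times that of control, a log2 change of -1.10 (SE 0.25, adjusted p = 0.0314). The changes with nano-SiO2 (-0.28, adjusted p = 0.680) and with nano-SiO2+MT (-0.11, adjusted p = 0.927) did not pass. In the F test over the 4 groups its adjusted p was 0.0604, and it passed without nano-SiO2+MT 1 (0.0179) or nano-SiO2+MT 2 (0.0279).

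This MT call rested on all of its libraries. The adjusted p was 0.139 without MT 1, 0.0789 without MT 2, 0.0560 without MT 3, 0.0552 without control 1, 0.139 without control 2 and 0.100 without control 3, with log2 changes between -1.17 and -0.98. Without the filter on low values it was 0.0653, and without control 1 and nano-SiO2 2 together it was 0.0652.

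Peroxidase 4 on chromosome 11 (Glyma.11G161600), the least abundant of the 3 genes with that name, was called only when all 4 groups were compared at once. The F test called 2 of 20 members, this gene (adjusted p = 0.0340) and peroxidase 22 (adjusted p = 0.00760), where 4.12% of all tested genes were called. At an unadjusted p under 0.05 the F test had 11 members, where 18.9% of all tested genes passed. Peroxidase 4 had 3.65, 6.60 and 4.78 FPKM with nano-SiO2, 0.974, 0.658 and 2.23 FPKM with MT, 0.891, 2.66 and 1.37 FPKM with nano-SiO2+MT, and 2.32, 4.19 and 4.07 FPKM in control. All MT libraries lay below all control libraries, and all nano-SiO2 libraries lay above those of nano-SiO2+MT and of MT. The change against control was 0.41 with nano-SiO2 (adjusted p = 0.609), -1.02 with MT (adjusted p = 0.0839) and -0.81 with nano-SiO2+MT (adjusted p = 0.253).

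Few single libraries could be removed without ending this F call. Its adjusted p was 0.0971 without MT 1, 0.0778 without MT 2, 0.0756 without control 2, 0.0735 without control 3, 0.0937 without nano-SiO2 2, 0.0674 without nano-SiO2 3, 0.0536 without nano-SiO2+MT 1 and 0.0561 without nano-SiO2+MT 3. It was 0.0748 without the filter on low values. Without MT 3, the highest MT library, the gene also passed for MT against control (log2 change -1.29, adjusted p = 0.0382).

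**Figure D2:**
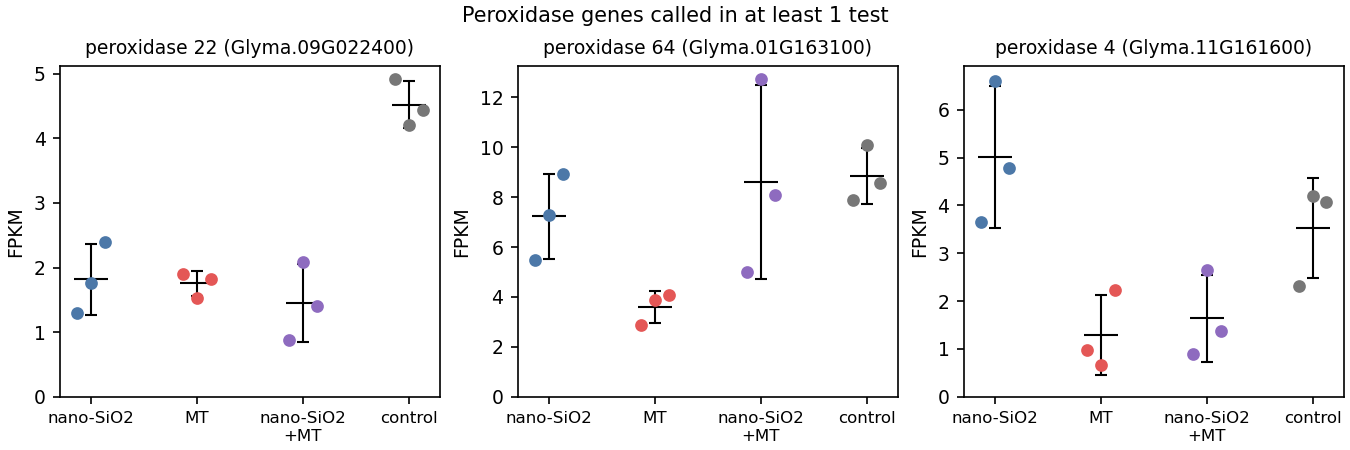
FPKM of peroxidase 22, peroxidase 64 and peroxidase 4 (Glyma.11G161600) in the 3 libraries of each group (points), with group mean and SD (bars). Peroxidase 22 lies between 0.879 and 2.39 FPKM in the 9 sprayed libraries and between 4.21 and 4.91 FPKM in control, and peroxidase 64 is lowest in the MT libraries, at 2.87 to 4.07 FPKM.

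Peroxidase 25 (Glyma.13G167100), an enzyme linked to stem lignin in Arabidopsis, had values in the other direction, and was chosen for description after these were seen. It had 1.50, 2.54 and 1.40 FPKM with nano-SiO2, 0.940, 0.765 and 2.54 FPKM with MT, 0.844, 1.00 and 1.26 FPKM with nano-SiO2+MT, and 0.372, 0.543 and 0.422 FPKM in control. All 9 sprayed libraries lay above all control libraries. The ratio to the control mean was 4.07 with nano-SiO2, 3.18 with MT and 2.33 with nano-SiO2+MT. None of these changes passed, at log2 changes of 0.94 (adjusted p = 0.141), 0.67 (adjusted p = 0.152) and 0.49 (adjusted p = 0.432). The control values were below the limit of the filter, where the added 1 FPKM reduces the ratio on the log2 scale. Only sprayed libraries reached 1 FPKM, 6 of them, which is how the gene entered the tests, so these values are a description. Without MT 3, whose 2.54 FPKM stood far above MT 1 and MT 2, the nano-SiO2 change passed (adjusted p = 0.0272).

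Over the 20 tested members, log2 changes above and below 0 were counted for each spray. With nano-SiO2, 14 lay above 0 and 6 below (median log2 change 0.17, against 0.10 over all tested genes). With MT, 6 lay above 0 and 14 below (median -0.21, against -0.05 over all tested genes). With nano-SiO2+MT, 8 lay above 0 and 12 below (median -0.13, against -0.05). After median-ratio scaling of the libraries the medians were 0.08, -0.18 and -0.08, and the splits with MT and with both were the same, while the nano-SiO2 split was 12 above and 8 below.

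Libraries of sprayed groups were also compared with control for overlap. With nano-SiO2, 2 of 20 members lay wholly above control and 1 wholly below, where 12.2% and 3.78% of all tested genes did. The genes above were peroxidase 25 and putative Peroxidase 48, the second of which had passed the filter through its nano-SiO2 libraries alone. Peroxidase 25 lay wholly above control with every spray and had passed the filter through sprayed libraries only. With MT, 3 lay wholly above and 7 wholly below, where 9.12% and 14.0% of all tested genes did. With nano-SiO2+MT, 1 lay wholly above and 3 wholly below, where 7.13% and 12.3% of all tested genes did. Of the 7 below with MT, peroxidase 12 (Glyma.10G222500) and peroxidase 64 (Glyma.14G221400) had no MT library at 1 FPKM. Both entered the tests through other groups, control among them. The second was also among the 3 below with nano-SiO2+MT, with no library of that group at 1 FPKM.

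**Figure D3:**
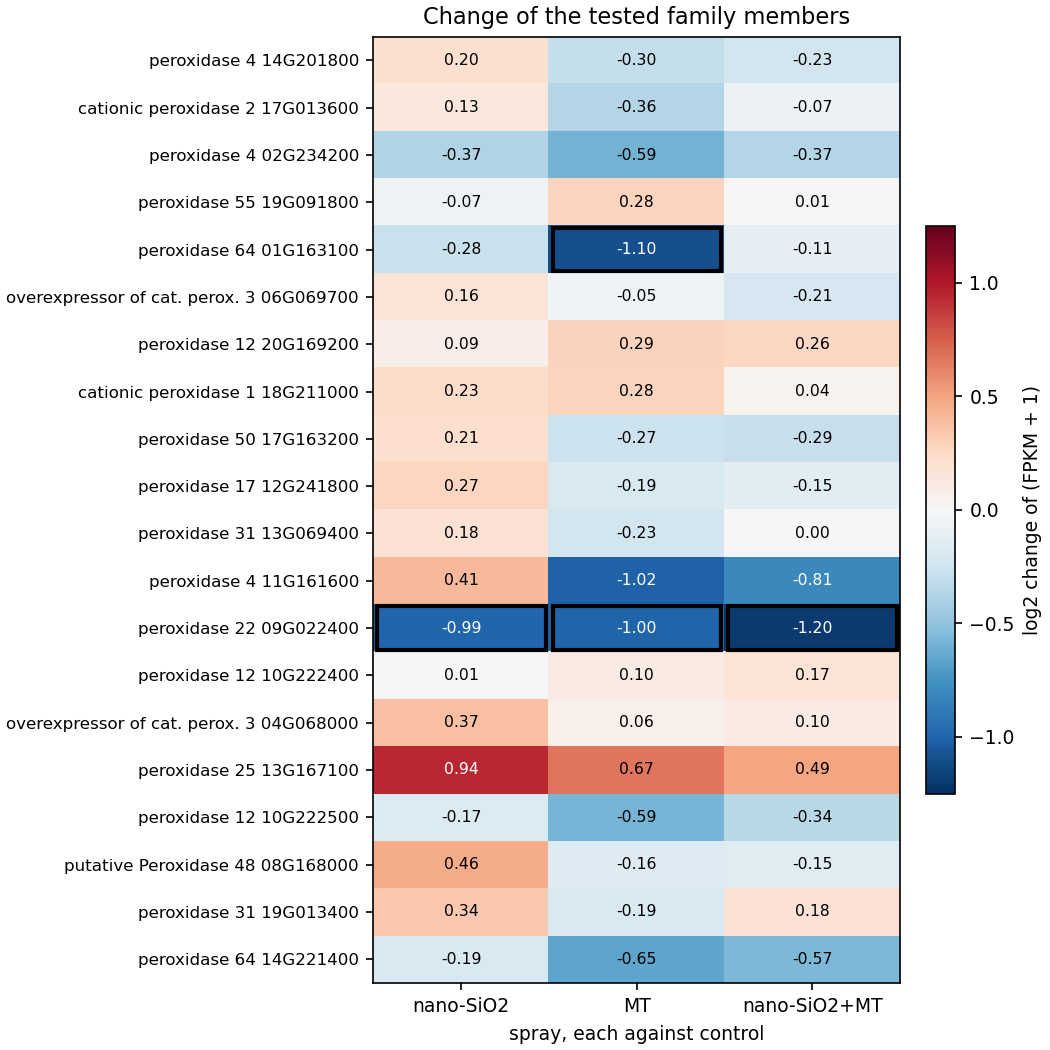
Log2 change of (FPKM + 1) against control for the 20 tested members (in order of mean FPKM, highest at the top) under each spray, with called changes framed. The 4 framed cells are peroxidase 22 under every spray (which fell by 0.99, 1.00 and 1.20) and peroxidase 64 with MT (-1.10), and peroxidase 25 has the highest value in each column (0.94, 0.67 and 0.49).

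Adding MT to nano-SiO2 was compared with nano-SiO2 alone. None of the 20 members was called by limma, where 1.53% of all tested genes were called, and 6 had an unadjusted p under 0.05, as did 18.5% of all tested genes. For all 6 the nano-SiO2+MT value was lower. In this comparison 15 members lay below 0 and 5 above (median log2 change -0.21, against -0.15 over all tested genes), and 8 lay wholly below and none wholly above, where 19.5% of all tested genes lay wholly below and 3.46% wholly above. After median-ratio scaling the median was -0.10 with the same split, against -0.01 over all tested genes. The 8 wholly below included both OVEREXPRESSOR genes, peroxidase 25 and putative Peroxidase 48. Peroxidase 25 had passed the filter through sprayed libraries only, and putative Peroxidase 48 through its nano-SiO2 libraries alone. The OVEREXPRESSOR gene Glyma.06G069700 and putative Peroxidase 48 were also among the 6 with an unadjusted p under 0.05. In the same comparison 26 of 28 tested leaf mesophyll markers lay above 0 and 16 wholly above (median 0.35), none of them called by limma and 13 at an unadjusted p under 0.05. With nano-SiO2 against control, 26 of these 28 lay below 0 (median -0.32, against 0.10 over all tested genes). Of them 9 lay wholly below control and 1 was called lower, where 3.78% and 0.103% of all tested genes did or were. The part of these markers in the peroxidase values was not tested.

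The largest of these changes was that of peroxidase 4 (Glyma.11G161600), which averaged 1.64 ± 0.913 FPKM with nano-SiO2+MT and 5.01 ± 1.49 FPKM with nano-SiO2 (n = 3 each; log2 change -1.21, SE 0.29, adjusted p = 0.0606). It passed without MT 3 (adjusted p = 0.0391) or nano-SiO2+MT 2 (0.0495). Putative Peroxidase 48 (Glyma.08G168000) had 0.361, 0.351 and 0.835 FPKM with nano-SiO2+MT, and 1.38, 1.32 and 1.20 FPKM with nano-SiO2. Its log2 change was -0.61. In the other groups it had 0.410, 0.622 and 0.445 FPKM with MT and 0.547, 0.511 and 0.974 FPKM in control. Only its nano-SiO2 libraries reached 1 FPKM, which is how it entered the tests, so these values are a description. Peroxidase 50 (Glyma.17G163200) averaged 3.20 ± 0.296 FPKM with nano-SiO2+MT and 4.97 ± 0.707 FPKM with nano-SiO2 (log2 change -0.50, adjusted p = 0.0751).

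Adding nano-SiO2 to MT was compared with MT alone. None of the 20 members was called by limma, where 0.294% of all tested genes were called, and 2 had an unadjusted p under 0.05, as did 4.59% of all tested genes. Of the members 13 lay above 0 and 7 below (median 0.06, against 0.00 over all tested genes), 2 lay wholly above and 1 wholly below, where 4.02% and 5.55% of all tested genes did. Of the 2 above, peroxidase 31 (Glyma.19G013400) reached 1 FPKM only in nano-SiO2 1, nano-SiO2 2 and nano-SiO2+MT 2. It thus entered the tests through groups with nano-SiO2, and was also among the 2 with an unadjusted p under 0.05. The largest change was that of peroxidase 64 (Glyma.01G163100), which averaged 8.60 ± 3.90 FPKM with nano-SiO2+MT and 3.61 ± 0.644 FPKM with MT (n = 3 each; log2 change 0.99, SE 0.25, adjusted p = 0.253). It passed without nano-SiO2+MT 1, the lowest library of its group (log2 change 1.29, adjusted p = 0.0414).

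The interaction asks whether adding MT to nano-SiO2 had another effect than MT on its own (the first effect minus the second). No member was called by limma, where 0.524% of all tested genes were called, and 4 had an unadjusted p under 0.05, as did 8.55% of all tested genes. Peroxidase 64 had the largest value, 1.26 (SE 0.35, adjusted p = 0.209), and passed without nano-SiO2+MT 1 (1.56, adjusted p = 0.0476). Peroxidase 25 had -1.12 (SE 0.33, adjusted p = 0.250) and peroxidase 22 had 0.79 (SE 0.26, adjusted p = 0.322).

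Genes that share a name were set side by side, since 33 different names cover the 66 enzyme genes and 19 names have at least 2 genes. Reads of close copies may have been split between them, by a method not stated in the sources used here. The 3 genes of peroxidase 4 differed in level, with means over 12 libraries of 13.7, 12.6 and 2.87 FPKM. With MT all 3 changes were negative, at -0.30 for Glyma.14G201800, -0.59 for Glyma.02G234200 and -1.02 for Glyma.11G161600, and none passed. Of the 2 genes of peroxidase 64, the weaker copy Glyma.14G221400 had 0.493, 1.40 and 0.431 FPKM with nano-SiO2, 0.143, 0.392 and 0.224 FPKM with MT, 0.158, 0.464 and 0.383 FPKM with nano-SiO2+MT, and 1.36, 1.15 and 0.496 FPKM in control. Both copies were wholly below control with MT, but the weaker copy (-0.65, adjusted p = 0.137) did not pass. The weaker copy entered the tests only through nano-SiO2 and control libraries.

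The 3 genes of peroxidase 12 had log2 changes of different sign with MT. Glyma.10G222400 and Glyma.10G222500 are adjacent in the gene order of chromosome 10. With MT the first of them averaged 2.03 ± 0.220 FPKM, against 1.83 ± 0.273 FPKM in control (log2 change 0.10, adjusted p = 0.827). Its neighbour had 0.605, 0.415 and 0.553 FPKM with MT, wholly below the 1.26, 1.53 and 1.09 FPKM in control (log2 change -0.59, adjusted p = 0.0734). This neighbour entered the tests through libraries of the other groups. The third gene, Glyma.20G169200, changed by 0.29 with MT (adjusted p = 0.379) and its MT libraries lay wholly above control. Of the 2 genes of peroxidase 31, Glyma.13G069400 averaged 3.27 FPKM over all libraries and Glyma.19G013400 averaged 0.745 FPKM, and the changes of both were between -0.23 and 0.34 against control.

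**Figure D4:**
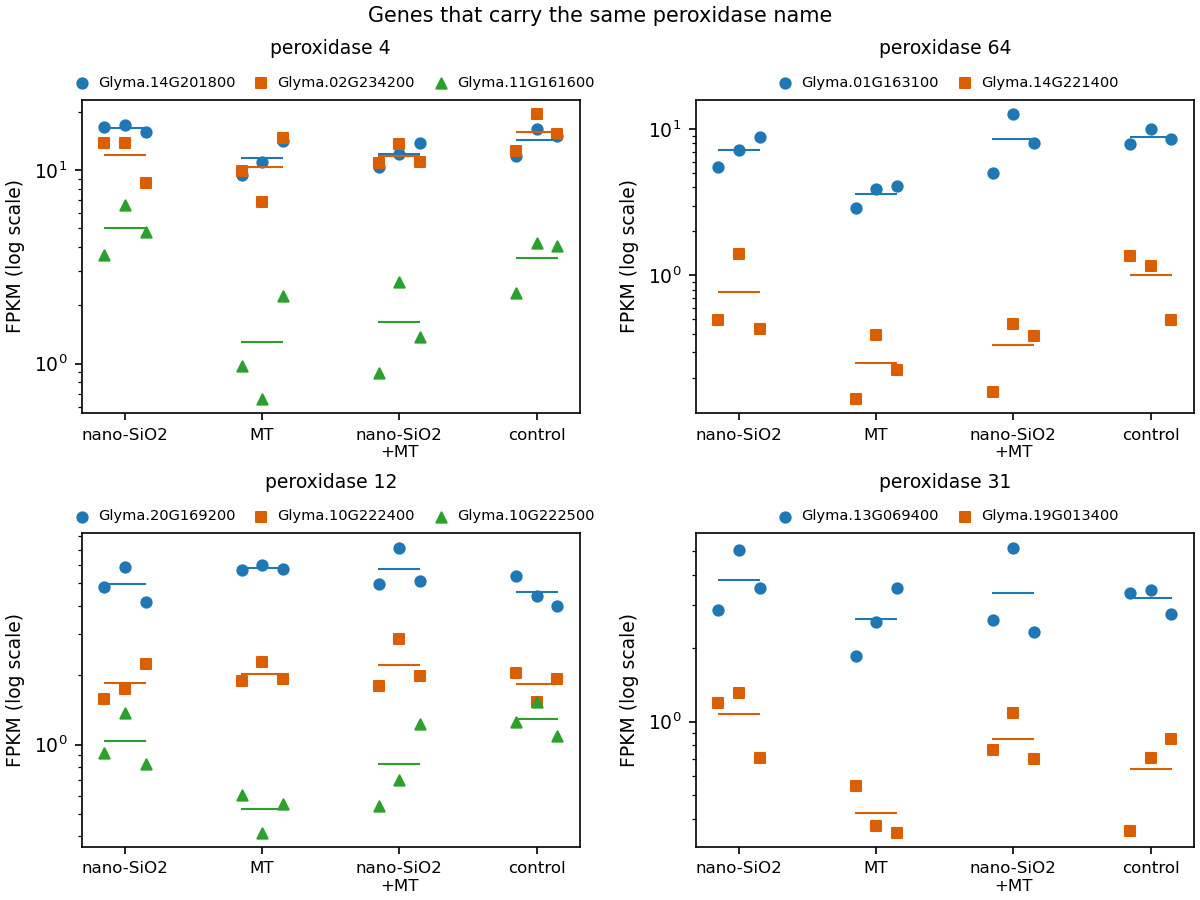
FPKM (log scale) of tested genes that carry the same peroxidase name, by group, with the 3 libraries as points and the group mean as a line. The weaker copy of peroxidase 64 lies well under the stronger one in every library, and among the peroxidase 12 genes Glyma.10G222500 is lower with MT (0.415 to 0.605 FPKM) than in control (1.09 to 1.53 FPKM), while its neighbour Glyma.10G222400 overlaps.

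Copies lay next to each other on the chromosome in 4 other pairs, counting 1 pair with a gene in between, and in none of these were both members tested. On chromosome 18, cationic peroxidase 1 (Glyma.18G211000) averaged 4.54 FPKM and its neighbour Glyma.18G211100 averaged 0.156 FPKM. The enzyme genes lie on 16 chromosomes, and the tested ones on 13.

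A further 33 genes are annotated as class III peroxidases with descriptions outside the rule, such as peroxidase P7, peroxidase A2 or plain peroxidase, and 9 of them were tested. Their summed level was higher than that of the 66 enzyme genes, at 190 to 239 FPKM with nano-SiO2, 125 to 147 FPKM with MT, 122 to 183 FPKM with nano-SiO2+MT and 203 to 234 FPKM in control. With MT 3 of 9 were called lower, where 1.69% of all tested genes were, and all 9 lay below 0 (median -0.74, against -0.05 over all tested genes). Of the 3 called, peroxidase P7 (Glyma.02G259300) reached 1 FPKM only in the control libraries and nano-SiO2+MT 2. It thus entered the tests through the group where it was high, and its call held in 7 of 12 fits with 1 library left out. With nano-SiO2+MT 2 of 9 were called lower, where 0.637% of all tested genes were, and with nano-SiO2 none was. Peroxidase A2, given below, was among the 2 called with nano-SiO2+MT. A gene described only as peroxidase (Glyma.05G103600) averaged 33.9 ± 1.45 FPKM with MT and 57.3 ± 4.38 FPKM in control (log2 change -0.74, adjusted p = 0.00872), a call that did not pass without control 2 (adjusted p = 0.0592). Peroxidase A2 (Glyma.19G148800) had 0.0737, 0.0745 and 0.595 FPKM with nano-SiO2+MT, and 2.78, 3.18 and 1.79 FPKM with nano-SiO2 (log2 change -1.53, adjusted p = 0.00408). That call held in all 12 fits with 1 library left out. However, this gene reached 1 FPKM only in the nano-SiO2 libraries, control 2 and control 3. It thus entered the tests through groups where it was high, and its values are a description. The total of genes named as peroxidase is therefore larger than the rule took, and its most abundant genes lie outside it.

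Genes that supply or share the substrates of peroxidases were counted from lists. Of 54 tested genes of monolignol synthesis, 5 were called lower with MT, 1 lower with nano-SiO2+MT and none with nano-SiO2, where 1.69%, 0.637% and 0.103% of all tested genes were called lower, and no gene of the list was called higher with any spray. Phenylalanine ammonia-lyase 2 (Glyma.10G209800), the entry enzyme of the pathway, averaged 1.64 ± 0.0876 FPKM with MT and 3.82 ± 0.311 FPKM in control (log2 change -0.87, adjusted p = 0.00271). Of 18 tested laccases, 6 were called lower with MT, 1 lower with nano-SiO2+MT and 1 lower with nano-SiO2, against the same shares over all tested genes, and none higher. The nano-SiO2 call, that of laccase-12, held in 2 of 12 fits with 1 library left out and in 1 of 7 other settings, with an adjusted p of up to 0.495. Laccase-12 (Glyma.11G233400) averaged 0.942 ± 0.194 FPKM with MT and 5.98 ± 0.422 FPKM in control (log2 change -1.85, adjusted p = 0.00398).

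None of 8 tested respiratory burst oxidases, which make the superoxide that yields hydrogen peroxide outside the cell, was called by limma with any spray. An unadjusted p under 0.05 was found for 2 with MT, 2 with nano-SiO2+MT and none with nano-SiO2. Of all tested genes, 16.8%, 12.1% and 10.7% had such a p. Of 11 tested dirigent proteins, which steer the coupling of monolignol radicals, 1 was called lower with MT and none with the other sprays. That call (Glyma.19G151000) held in 2 of 12 fits with 1 library left out and in 4 of 7 other settings. Over all tested genes 1.69% were called lower with MT, 0.637% with nano-SiO2+MT and 0.103% with nano-SiO2. In nano-SiO2+MT against nano-SiO2, 3 of 54 monolignol genes, 2 of 18 laccases, 1 of 11 dirigent proteins and no respiratory burst oxidase were called, all lower. In that comparison 1.53% of all tested genes were called, and 345 of these 432 calls were lower. In nano-SiO2+MT against MT no gene of these lists was called, where 0.294% of all tested genes were.

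Some markers of xylem and secondary walls were also lower with MT. Of 34 tested genes of this list of 66, 6 were called lower with MT, 1 lower with nano-SiO2+MT and none with nano-SiO2, where 1.69%, 0.637% and 0.103% of all tested genes were called lower. The nano-SiO2+MT call (Glyma.03G180000) held in 1 of 12 fits with 1 library left out and in 3 of 7 other settings. With nano-SiO2 against control, 31 of the 34 lay above 0 (median 0.45, against 0.10 over all tested genes). Of them 6 lay wholly above control, where 12.2% of all tested genes did, and 1 of the 34 lay wholly below. In nano-SiO2+MT against nano-SiO2, 5 were called, all lower, where 1.53% of all tested genes were called. Of the 34, 32 lay below 0 (median -0.70, against -0.15 over all tested genes). Wholly below lay 20, where 19.5% of all tested genes did. The summed level was 204 to 415 FPKM with nano-SiO2, 80.5 to 109 FPKM with MT, 91.3 to 215 FPKM with nano-SiO2+MT and 157 to 246 FPKM in control, and no gene of the list was at 0 in all libraries. Fasciclin-like arabinogalactan protein 11 (Glyma.03G179900), a protein of secondary walls in Arabidopsis, averaged 4.80 ± 0.600 FPKM with MT and 18.5 ± 1.88 FPKM in control (log2 change -1.75, adjusted p = 0.00978; 0.0532 without MT 1 and 0.0536 without control 3). The summed level of the 46 laccase genes was 73.7 to 164 FPKM with nano-SiO2, 23.2 to 36.5 FPKM with MT, 26.8 to 74.3 FPKM with nano-SiO2+MT and 67.9 to 113 FPKM in control. The MT libraries lay wholly below control for both sums and for the 33 peroxidase genes outside the rule, and overlapped it for the 66 enzyme genes within it. The part of xylem content in the changes of the peroxidase genes was not tested.

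**Figure D5:**
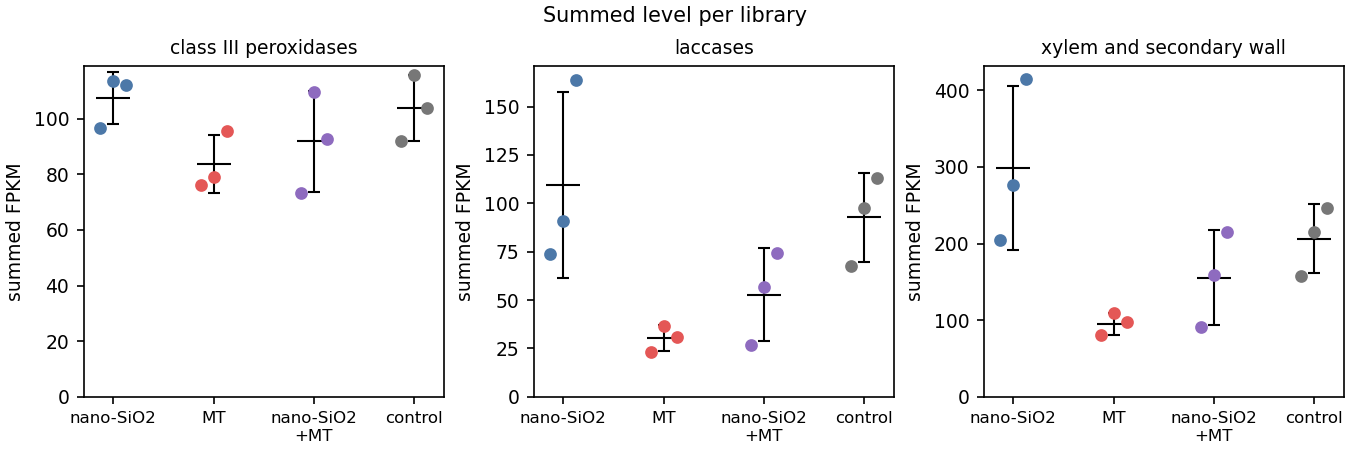
Summed FPKM per library (points) with group mean and SD (bars) for the 66 class III peroxidase enzyme genes, 46 laccase genes and 66 genes of the xylem and secondary wall list. The MT libraries lie between 76.1 and 95.7 FPKM for the peroxidases, overlapping control, and between 80.5 and 109 FPKM for the xylem list, below the 157 to 246 FPKM of control.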

How the data were processed

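The labels' protocols describe poly(A) leaf RNA, sequenced here in 12 libraries. The table deposited by the authors holds an FPKM value for every gene in each library, per its header. It also holds p-values and q-values that the authors deposited for an unnamed comparison, which were not used. DESeq2 1.34.0 and R 4.1.2 are listed in the submitters' processing notes. Aligner, quantifier and strandedness are not stated in the sources used here, and read counts were not used. Gene names are the table's own descriptions, since 0 identifiers matched a RefSeq table of 59048 genes.

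The log2 of FPKM + 1 was fitted with limma 3.58.1 in R 4.3.3, with a mean per group and trended, robust eBayes, for genes reaching 1 FPKM in 3 or more libraries. The workflow was checked on simulated data. The 6 contrasts and the F test were two-sided. Alternatives were a pseudocount of 0.1, no filter, median-ratio scaling, quantile normalization, a replicate block, only the groups compared, and libraries left out. Same-numbered libraries were not treated as pairs.

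The members and the lists were chosen with earlier results of these data known. The rule for named genes took called members, the 8 most abundant members, the member with the largest change where none was called, and called genes of each list, of which part are given. All other genes named, among them peroxidases 17, 25, 48 and 50, the weaker copies and untested members, were chosen after their values were seen.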

Additional observations from a re-analysis of the deposited data

Results flagged for a closer look

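Laccase-12 (Glyma.11G233400), a gene outside the peroxidase family, had an MT effect that differed with nano-SiO2 by the interaction term (2.40 on the log2 scale, SE 0.41, limma adjusted p = 0.0172). It had 2.22, 5.96 and 1.30 FPKM with nano-SiO2+MT, 1.55, 1.37 and 1.73 FPKM with nano-SiO2, 0.746, 0.947 and 1.13 FPKM with MT, and 6.17, 6.26 and 5.49 FPKM in control. The interaction did not pass without MT 1 (adjusted p = 0.0659), MT 2 (0.0545), control 1 (0.0585), control 2 (0.0649), nano-SiO2 1 (0.0519) or nano-SiO2 2 (0.0657). Without control 1 and nano-SiO2 2 together its limma adjusted p was 0.165. Among the peroxidase genes no interaction passed.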

How the results depend on the processing

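Every called peroxidase change kept its direction under all alternatives. Counts of called peroxidases moved as follows. Without control 1 and nano-SiO2 2 together, the count was 1 with MT, 0 with nano-SiO2 and 0 by the F test, where peroxidase 22 had an adjusted p of 0.0619. For nano-SiO2 it was also 0 with no filter and with a pseudocount of 0.1. With no filter, probable peroxidase 26 (Glyma.13G346100), which averaged 0.312 FPKM with MT and 0.110 FPKM in control, was called higher with MT (adjusted p = 0.0308). With 1 library left out, the counts ran from 0 to 2 for nano-SiO2, 1 to 2 for MT, 1 to 3 for the F test and 0 to 1 for the interaction and for nano-SiO2+MT against either single spray. The count for nano-SiO2+MT against control was 1 under all alternatives run.

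Over all genes, leaving out control 1 and nano-SiO2 2 gave 29 for nano-SiO2, 119 for nano-SiO2+MT against nano-SiO2, 71 for the interaction and 632 by the F test. No filter gave 239 for nano-SiO2+MT against control, 229 for it against nano-SiO2 and 766 by the F test. Fitting only the groups compared gave 124 for nano-SiO2+MT against nano-SiO2 and 54 for it against MT. With 1 library left out the counts ran from 43 to 173 for nano-SiO2, 350 to 1098 for MT, 60 to 470 for nano-SiO2+MT, 103 to 535 for it against nano-SiO2, 34 to 98 for it against MT, 88 to 213 for the interaction and 484 to 1080 for the F test. The cause of these moves was not tested.

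Same-numbered libraries correlated above 0.1 in 9 of 18 pairs (from -0.34 to 0.53), and 2 of 12 libraries were closest to their own number in every other group. This check cannot show whether same-numbered libraries share more than a number. The replicate block gave 789 genes and 1 peroxidase (Glyma.11G161600, adjusted p = 0.0320) for nano-SiO2+MT against nano-SiO2, called that gene with MT (0.0455) and called peroxidase 64 by the F test (0.0165). For nano-SiO2+MT against nano-SiO2, the median of all genes was -0.01 after median-ratio scaling and -0.15 before, and 42.4% of calls were higher after scaling and 20.1% before. For nano-SiO2+MT against control, these shares were 65.0% after scaling and 53.4% before. Depth in reads is unknown, so counting error at levels near 1 FPKM could not be given.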
